A study of Mus musculus with 8 samples.

Results

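The 6 genes described here encode subunits of the N-methyl-D-aspartate (NMDA) receptor, the glutamate-gated channel that ketamine blocks. Grin1, Grin2a, Grin2b, Grin2c, Grin2d and Grin3a were picked by symbol, and all 6 were among the 20802 genes of the table. Hippocampal RNA came from 8 male C57BL/6 mice at postnatal day (PND) 28, with 4 mice in each group. The Anesthesia group received ketamine intraperitoneally at 35 mg per kg once a day on 5 days from PND16 to PND20. The Control group received saline on the same days, even though its sample titles read untreated. RNA was taken 1 week after the last injection. The comparison asks whether repeated ketamine anesthesia was followed by a different level or balance of the mRNAs of its own target.

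An NMDA receptor is built from GluN1 subunits, encoded by Grin1, together with GluN2 or GluN3 subunits. GluN1 is present in every such receptor and GluN1 and GluN3 bind glycine or D-serine, whereas GluN2 binds glutamate and sets the kinetics and the magnesium block of the channel. In the rodent forebrain Grin2b is expressed early and Grin2a increases during the first postnatal weeks, a change known as the GluN2B to GluN2A switch, and the injections fell in this period. Grin2d is highest early in life and later marks interneurons in the forebrain, Grin2c is best known from cerebellar granule neurons and astrocytes, and Grin3a encodes a subunit with low calcium permeability that is most abundant in young neurons.

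The subunit genes are relatives, so the reads of one could in principle be assigned to another. The longest run of codons with the same translation in the longest coding transcript of all 6 genes spanned 21 bases. It is shown as the longest stretch that all 6 translate alike. It lies within 1 coding exon of each gene, in the part of the protein that lines the channel pore. The sequences are from the GENCODE M21 transcripts (build GRCm38), 5′ to 3′ on the minus strand, and capitals mark the bases that differ from Grin1.
Grin1: tacactgccaacctggcagcc
Grin2a: tacacAgccaacctggcTgcc
Grin2b: tacactgccaacTtAgcCgcc
Grin2c: tacacGgccaaTctggcagcc
Grin2d: taTacAgccaaTctggcTgcc
Grin3a: tacacAgcGaacTtggcTgcT
The positions of the stretch are chr2:25297202-25297222 for Grin1, chr16:9653450-9653470 for Grin2a, chr6:135772247-135772267 for Grin2b, chr11:115253752-115253772 for Grin2c, chr7:45854282-45854302 for Grin2d and chr4:49770473-49770493 for Grin3a. Within this stretch Grin3a differed from Grin1 at 5 of 21 bases and Grin2d at 4, Grin2b at 3, and Grin2a and Grin2c at 2 each. Over all annotated transcripts, the only strings of 31 bases that members had in common were 4 between Grin2b and Grin2c and 2 between Grin2c and Grin2d. Larger overlaps were with other genes. Of the 31-base strings of Grin2a, 12.1% also occurred in other genes, 2133 of them in the processed pseudogene Gm7328, which has no row in the table. For Grin1 the share was 10.7%, of which 1016 strings lay in the antisense gene Grin1os. For Grin2d the share was 8.62%, of which 557 strings lay in the antisense gene Gm45441. The shares were 1.26% for Grin2c, 0.994% for Grin2b and 0% for Grin3a.

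Across the table, the values of a mouse summed to between 18702634 and 19231119 normalized counts, and the steps between low values placed the libraries at approximately 15400000 to 22200000 reads, with the lowest in Control mouse 3. Of the 18865 genes that averaged 10 or more, 0% passed an adjusted p of 0.05 (limma with Benjamini-Hochberg adjustment). In that fit 1513 genes, 8.02%, had an unadjusted p under 0.05. The voom method in limma also called 0 genes, with 1468 under the unadjusted threshold. The paper, using a DESeq2 count model, did report differentially expressed genes at an adjusted p under 0.05. The 0% therefore belongs to the fits used here. As a check of the tissue label, all 6 pan-neuronal and all 6 dentate granule neuron markers were listed, the pan-neuronal markers summing to 50192 to 57776 in the Anesthesia mice and 48360 to 52689 in the Control mice. Choroid plexus, the ependymal tissue that adjoins the hippocampus and makes cerebrospinal fluid, was present in very uneven amounts. Its 10 markers, none at 0 in any mouse, summed to 57242, 862.2, 462.1 and 3309 in Anesthesia mice 1 to 4 and to 596.5, 26517, 66685 and 66450 in Control mice 1 to 4. All 10 had a lower mean in the Anesthesia group, and 3 of the 4 Anesthesia mice and 1 of the 4 Control mice held little of it.

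Of the 6 subunit genes, 0 passed the adjusted threshold, against 0% of all genes, and 1, Grin2c, had an unadjusted p under 0.05. The mean log2 level was higher in the Anesthesia group for 5 of them and lower for Grin3a, where 49.2% of all genes tested were higher. The values of the groups overlapped for every member, while 5.04% of all genes had groups that did not overlap. All 6 genes passed the filter on low values. In bulk tissue, a higher value from more cells of a type and from more RNA per cell cannot be told apart.

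Grin1 (ENSMUSG00000026959, chr2:25291181-25319187, minus strand), the obligatory subunit, measured 3678, 4267, 4700 and 3804 normalized counts in Anesthesia mice 1 to 4. In Control mice 1 to 4 it measured 3761, 3837, 3249 and 3901. Anesthesia mice 2 and 3 lay above every Control mouse and the other 2 within the Control range. The means were 4112 ± 466 and 3687 ± 297 (SD, n = 4 each). The log2 fold change was 0.15 (SE 0.088, limma adjusted p = 0.671), with a 95% interval of -0.040 to 0.35. The interval thus reached from a 1.03-fold lower to a 1.27-fold higher level. Without Anesthesia mouse 3 the log2 fold change was 0.088, and without Control mouse 3 it was 0.095. Without the pair of mice with the highest and lowest dentate markers, Anesthesia mice 2 and 3, the log2 fold change was 0.025. With the pan-neuronal markers as a covariate it was 0.049, after correction for GC content and transcript length it was 0.033, and Anesthesia mouse 3, which had the highest Grin1, also had the highest summed pan-neuronal markers. The part of neuronal content in the Grin1 values was not tested further.

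Grin1os (ENSMUSG00000085830), an antisense gene whose exons overlap those of Grin1, was looked at because of this overlap and is named after its values were seen. It measured 112.7, 169.6, 181.8 and 134.6 in Anesthesia mice 1 to 4 and 99.5, 108.4, 94.8 and 97.3 in Control mice 1 to 4. The groups did not overlap, a property that 5.04% of all genes had. Anesthesia mice 2 and 3 were the highest, as they were for Grin1. The log2 fold change was 0.55 (SE 0.16, limma adjusted p = 0.573, unadjusted 0.0054). The labels and the study's methods name different library kits, of which only one is stranded, so reads of Grin1 and Grin1os may not have been separated.

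**Figure D1:**
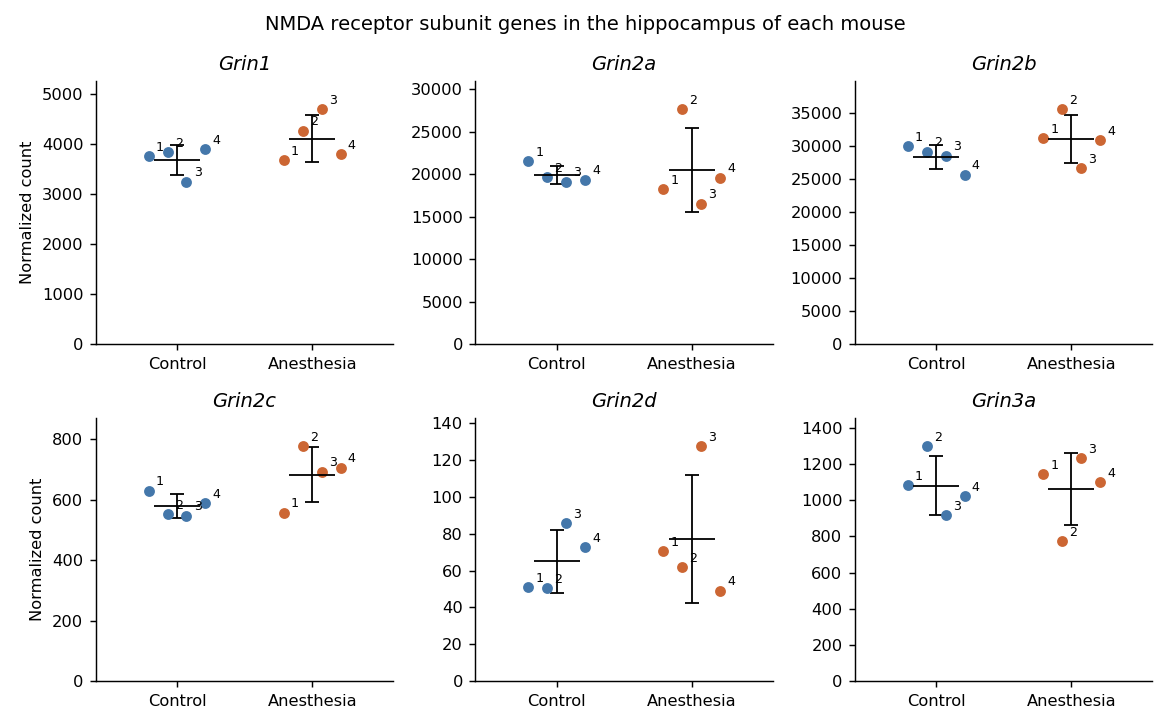
Normalized count (vertical axes, each from 0) of the 6 subunit genes in each mouse, Control in blue and Anesthesia in orange, with the mouse number beside each point and the mean ± SD in black. The groups overlap in every panel, and Grin2a spreads from 16536 to 27629 in the Anesthesia group but only from 19123 to 21495 in the Control group.

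Grin2a (ENSMUSG00000059003, chr16:9567898-9995560, minus strand) encodes GluN2A, the GluN2 subunit of mature synapses. Its values were 18249, 27629, 16536 and 19577 in Anesthesia mice 1 to 4. They were 21495, 19654, 19123 and 19330 in Control mice 1 to 4. The highest and the lowest value of the series were both in the Anesthesia group, whose coefficient of variation was 24.0% against 5.45% in the Control group. The means of 20498 ± 4914 and 19901 ± 1085 (SD, n = 4 each) gave a log2 fold change of 0.016 (SE 0.13, limma adjusted p = 0.978). The 95% interval ran from 1.21-fold lower to 1.24-fold higher. The sign rested on single mice, since the log2 fold change was -0.14 without Anesthesia mouse 2 and -0.0027 without Control mouse 3, and it was -0.082 after a correction for GC content and transcript length and -0.040 with the choroid plexus markers as a covariate. With the pan-neuronal markers as a covariate it was 0.17 (limma adjusted p = 0.867).

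The spread of Grin2a ran alongside the level of dentate granule neuron markers in the samples. The 6 markers of dentate granule neurons, all listed and none at 0, summed to 8181, 13552, 5816 and 8529 in Anesthesia mice 1 to 4 and to 11569, 8455, 8717 and 6814 in Control mice 1 to 4. Anesthesia mouse 2 ranked highest and Anesthesia mouse 3 lowest for both the markers and Grin2a, and Control mouse 1 ranked next to the highest for both. Across the 8 mice, log2 Grin2a and the mean log2 level of the dentate markers gave Pearson's r = 0.888 (exact permutation p = 0.0017, adjusted over 7 relations 0.012) and Spearman's rho = 0.786 (exact permutation p = 0.0279, adjusted 0.195). Without Anesthesia mice 2 and 3, the mice farthest from the median of the markers, r was 0.721 over 6 mice (exact permutation p = 0.0958). The relation therefore rested in part on those mice, and it was looked for after the values were seen. The 4 mice of a group are too few for a correlation, but in each group the mouse with the most dentate markers also had the most Grin2a. The Anesthesia mice came in the same order by both, and the Control mice did not. Control mouse 3 had more of the markers than Control mice 2 and 4 but the least Grin2a of the Control mice. The 6 markers of CA2 and CA3 pyramidal neurons, which summed to 3546, 4672, 2928 and 3571 in Anesthesia mice 1 to 4 and to 4175, 3854, 4211 and 3654 in Control mice 1 to 4, were likewise highest in Anesthesia mouse 2 and lowest in Anesthesia mouse 3. With the dentate markers as a covariate, also added after the data were seen, the log2 fold change of Grin2a was 0.027 (limma adjusted p = 0.911).

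Grin2b (ENSMUSG00000030209, chr6:135713233-136173511, minus strand) encodes GluN2B, the GluN2 subunit that predominates in young forebrain. Anesthesia mice 1 to 4 had 31199, 35561, 26646 and 30909 normalized counts. Control mice 1 to 4 had 29959, 29118, 28497 and 25664. Anesthesia mice 1, 2 and 4 were above every Control mouse, and Anesthesia mouse 3 was below 3 of them. The means were 31079 ± 3641 and 28310 ± 1863 (SD, n = 4 each), with a log2 fold change of 0.13 (SE 0.085, limma adjusted p = 0.699). The 95% interval was -0.059 to 0.32, or from 1.04-fold lower to 1.25-fold higher. The log2 fold change was 0.062 without Anesthesia mouse 2, 0.083 without Control mouse 4 and 0.20 without Anesthesia mouse 3.

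Grin2b followed the dentate markers too, with r = 0.828 (exact permutation p = 0.0125, adjusted over the 7 relations 0.0437) and rho = 0.619 (exact permutation p = 0.115, adjusted 0.268). Without Anesthesia mice 2 and 3, r was 0.560 (exact permutation p = 0.236), a value that 6 mice did not separate from 0, and as for Grin2a the relation rested in part on those mice. In each group the mouse with the most dentate markers had the most Grin2b and the mouse with the fewest had the least. With the dentate markers as a covariate the log2 fold change kept its size, at 0.14, and its unadjusted p fell to 0.0089, while the limma adjusted p was 0.458. With the pan-neuronal markers as a covariate it was 0.23 (unadjusted p = 0.0104, limma adjusted p = 0.840). After correction for GC content and transcript length it was 0.0034. For the other 4 members r with the dentate markers lay between -0.633 for Grin3a and 0.318 for Grin2c, and no exact permutation p among them was below 0.0903 before adjustment.

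Grin2c (ENSMUSG00000020734, chr11:115249169-115267243, minus strand) encodes GluN2C, whose receptors are only weakly blocked by magnesium. It measured 556.4, 777.9, 692.4 and 706.5 in Anesthesia mice 1 to 4. In Control mice 1 to 4 it measured 629.6, 552.8, 546.2 and 588.0. Anesthesia mice 2, 3 and 4 were above every Control mouse, whereas Anesthesia mouse 1 lay within the Control range. The means were 683.3 ± 92.5 and 579.1 ± 38.3 (SD, n = 4 each), and the log2 fold change of 0.23 (SE 0.10) had an unadjusted limma p of 0.0491 and an adjusted p of 0.622. With 4.75% of all genes at an unadjusted p under 0.05 and higher in the Anesthesia group, Grin2c ranked 1477 by p. An exact permutation test of the same values gave p = 0.0857, and correction for GC content and transcript length reduced the log2 fold change to 0.065.

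Grin2c divided the mice in the way their choroid plexus content did. The 4 mice with the lowest choroid plexus sums, Anesthesia mice 2, 3 and 4 and Control mouse 1, had Grin2c values of 629.6 to 777.9, and the 4 mice with the highest sums had 546.2 to 588.0. No other member separated these mice, and neither did most genes, since 5.43% of the genes tested did. Among the mice low in choroid plexus, Grin2c averaged 725.6 in the 3 Anesthesia mice and measured 629.6 in the Control mouse. Among those high in choroid plexus it was 556.4 in the Anesthesia mouse and averaged 562.3 in the 3 Control mice. Each of these sets holds a single mouse of one group, so no test was possible within them. With the mean log2 choroid plexus markers as a covariate the log2 fold change was 0.12 (limma adjusted p = 0.980, unadjusted 0.222).

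**Figure D2:**
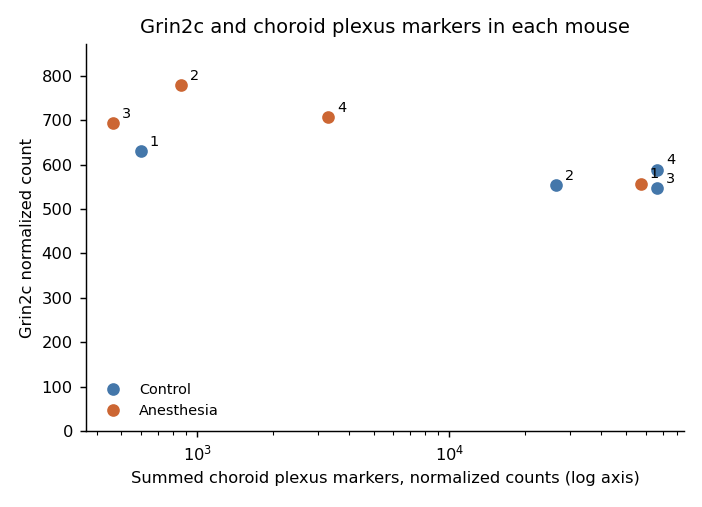
Normalized count of Grin2c (vertical axis, from 0) against the summed normalized counts of 10 choroid plexus markers (horizontal log axis) in each mouse, Control in blue and Anesthesia in orange, with mouse numbers. The 4 mice at the left have Grin2c values of 629.6 to 777.9 and the 4 at the right 546.2 to 588.0, and each side holds mice of both groups.

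The cells in which Grin2c is best known gave a less uniform account. The 9 astrocyte markers summed to 100414 to 113022 in the Anesthesia mice and 97634 to 103277 in the Control mice, but only 3 of the 9 had a higher mean in the Anesthesia group. Slc1a2, the astrocytic glutamate transporter that makes up most of that sum, measured 75386, 83187, 87619 and 79633 in Anesthesia mice 1 to 4 and 71418, 70246, 71819 and 76406 in Control mice 1 to 4. Of the genes listed for cerebellar granule neurons, Gabra6 has no row in the table and Cbln3 stayed between 4.72 and 11.2 normalized counts. Car8, which is not specific to granule neurons, measured 99.3 to 203.7. The part of astrocyte content in the Grin2c values was not tested.

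Grin2d (ENSMUSG00000002771, chr7:45831883-45878378, minus strand) encodes GluN2D and had the lowest level of the family. Its values were 70.5, 61.9, 127.8 and 49.0 in Anesthesia mice 1 to 4. They were 51.1, 50.5, 85.6 and 72.7 in Control mice 1 to 4. Anesthesia mouse 3 alone lay above the Control range, and Anesthesia mouse 4 had the lowest value of all. The means were 77.3 ± 34.8 and 65.0 ± 17.2 (SD, n = 4 each), and the log2 fold change was 0.19 (SE 0.29, limma adjusted p = 0.864). Its interval was the widest of the family, from 1.37-fold lower to 1.78-fold higher, and the sign turned to -0.081 without Anesthesia mouse 3 and to -0.015 after the GC and length correction. Leaving out single mice it ran up to 0.37, the value without Anesthesia mouse 4, and with the pan-neuronal markers as a covariate it was 0.011. The 8 markers of GABAergic interneurons, the cells that keep Grin2d in the older forebrain, summed to 8300 to 9731 in the Anesthesia mice and 9565 to 10103 in the Control mice. Of these 8 markers, 3 had a higher mean in the Anesthesia group, and the mean log2 difference of the list was 0.0033. The part of interneuron content in the Grin2d values was not tested. The antisense gene Gm45441, which overlaps exons of Grin2d, averaged 37.5 normalized counts, so its reads could weigh on a gene of this level.

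Grin3a (ENSMUSG00000039579, chr4:49661611-49845744, minus strand) was the only member of the GluN3 class, and Grin3b has no row in the table. Grin3a measured 1145, 774.1, 1233 and 1100 in Anesthesia mice 1 to 4. In Control mice 1 to 4 it measured 1084, 1301, 917.2 and 1024. Apart from Anesthesia mouse 2, which was the lowest of the series, the Anesthesia values lay within the Control range. The means of 1063 ± 200 and 1081 ± 162 (SD, n = 4 each) gave a log2 fold change of -0.035 (SE 0.15, limma adjusted p = 0.956), with an interval from 1.28-fold lower to 1.22-fold higher. It turned to 0.11 without Anesthesia mouse 2 and to 0.058 without Control mouse 2, and leaving out single mice it ranged from -0.11 to 0.11. With the pan-neuronal markers as a covariate it was -0.25 (limma adjusted p = 0.840, unadjusted 0.0618). Anesthesia mouse 2 was thus the mouse with the most Grin2a, Grin2b, Grin2c and dentate markers and the least Grin3a.

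The balance of GluN2A to GluN2B was read from the ratio of Grin2a to Grin2b within each mouse, which does not depend on library scaling. The ratio of normalized counts was 0.585, 0.777, 0.621 and 0.633 in Anesthesia mice 1 to 4. It was 0.717, 0.675, 0.671 and 0.753 in Control mice 1 to 4. Anesthesia mice 1, 3 and 4 lay below every Control mouse, and Anesthesia mouse 2, the mouse richest in dentate markers, lay above every one of them. The means were 0.654 ± 0.0845 and 0.704 ± 0.0389 (SD, n = 4 each). The log2 difference was -0.11 (two-sided exact permutation p = 0.314, adjusted over 6 ratios 0.886), where 4 mice against 4 allow no p below 0.0286.

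Without Anesthesia mouse 2 the log2 difference was -0.20. That mouse was the only Anesthesia mouse not below every Control mouse, so leaving it out separates the groups in advance. With 3 mice against 4 the smallest p that an exact test can give is 0.0571. No conclusion is drawn from the separation without that mouse. Leaving out each of the 8 mice in turn, the log2 difference ran from -0.20 to -0.063, the latter without Anesthesia mouse 1. Across the 8 mice the log2 ratio and the dentate markers gave r = 0.508 (exact permutation p = 0.203) and rho = 0.524 (exact permutation p = 0.197), and r was -0.015 without Anesthesia mice 2 and 3. Leaving out both of these mice, the log2 difference was -0.21.

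**Figure D3:**
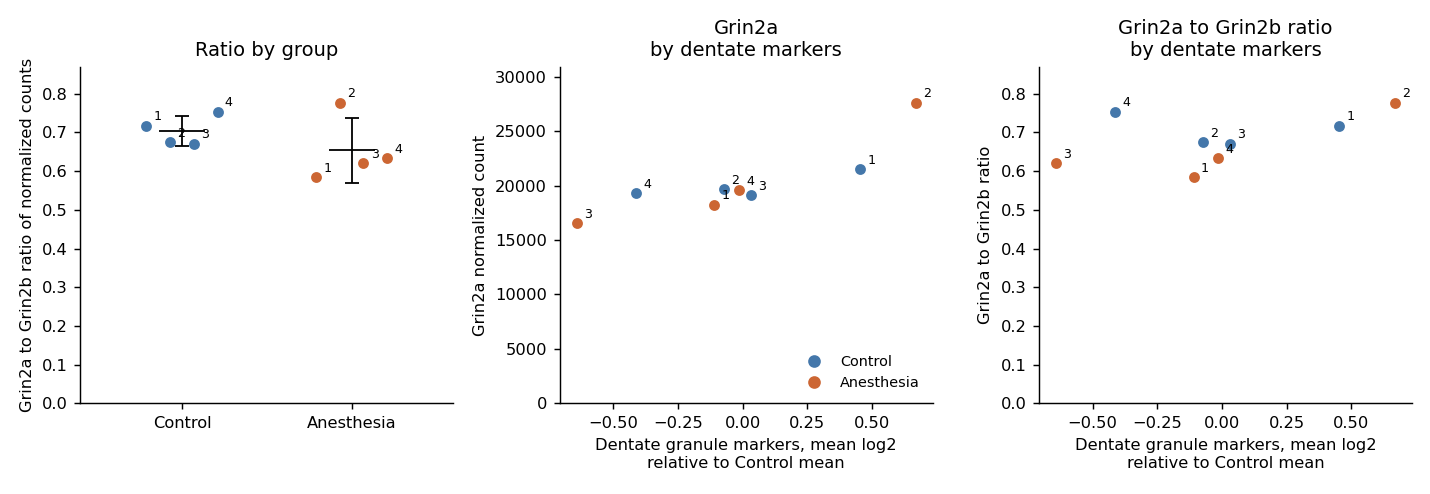
Left, ratio of Grin2a to Grin2b normalized counts in each mouse with the mean ± SD in black; middle and right, Grin2a and that ratio against the mean log2 level of 6 dentate granule neuron markers relative to the Control mean. Control is blue and Anesthesia orange, numbers name the mice, and Anesthesia mouse 2 is at the top in all 3 panels while the other 3 Anesthesia mice lie below every Control mouse for the ratio.

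The other 5 ratios set each subunit against Grin1, and the groups overlapped for each of them. Grin2a to Grin1 was 4.96, 6.47, 3.52 and 5.15 in Anesthesia mice 1 to 4 and 5.72, 5.12, 5.89 and 4.96 in Control mice 1 to 4, a log2 difference of -0.14 (exact permutation p = 0.600). Grin2b to Grin1 was 8.48, 8.33, 5.67 and 8.12 in Anesthesia mice 1 to 4 and 7.97, 7.59, 8.77 and 6.58 in Control mice 1 to 4, a log2 difference of -0.025 (exact permutation p = 0.886). Anesthesia mouse 3 was the lowest for both ratios, with the highest Grin1 and the fewest dentate markers. The log2 differences were 0.076 for Grin2c to Grin1, 0.038 for Grin2d to Grin1 and -0.19 for Grin3a to Grin1, with exact permutation p values of 0.486, 0.80 and 0.514, and adjusted over the 6 ratios each of the 5 had a p of 0.886. Without Anesthesia mouse 3 the Grin2a to Grin1 difference was 0.022 and the Grin2b to Grin1 difference was 0.11, and the latter was also positive, at 0.039, without Control mouse 3.

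Levels were compared between the subunits per kilobase (kb) of the longest annotated coding transcript. Over the 8 mice, Grin2a had 1380 ± 226 normalized counts per kb, Grin2b 1234 ± 127 and Grin1 912.0 ± 99.98 (SD, n = 8). Grin3a had 143.1 ± 22.5, Grin2c 129.0 ± 17.6 and Grin2d 13.1 ± 4.83. A group of 3 abundant subunit genes therefore stood apart from 2 of intermediate level and from Grin2d. Grin2a exceeded Grin2b in 7 of 8 mice with overlapping ranges, and Grin2b exceeded Grin1 in 8 of 8, also with overlapping ranges. Grin1 was above Grin3a, and Grin2c above Grin2d, in 8 of 8 mice with no overlap, while Grin3a and Grin2c, in that order in 7 of 8 mice, overlapped.

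As shares of the summed level per kb in the Control mice, Grin2a made up 37.0%, Grin2b 32.0%, Grin1 23.5%, Grin3a 3.92%, Grin2c 3.22% and Grin2d 0.329%. In the Anesthesia mice the shares were 35.1%, 32.7%, 24.5%, 3.68%, 3.54% and 0.369% in the same order of genes. The order of the most abundant genes depended on the length used. Over the union of all annotated exons, Grin2b had 1195 per kb, Grin2a 1126 and Grin1 402.0, Grin2b being above Grin2a in 6 of 8 mice. Over the median coding transcript, Grin2b had 18770 per kb and Grin2a 4021, because the annotated coding transcripts of Grin2b range up to 24060 bases with a median of 1582. That Grin2d was the lowest, and Grin1, Grin2a and Grin2b the highest, held with all 3 lengths.

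**Figure D4:**
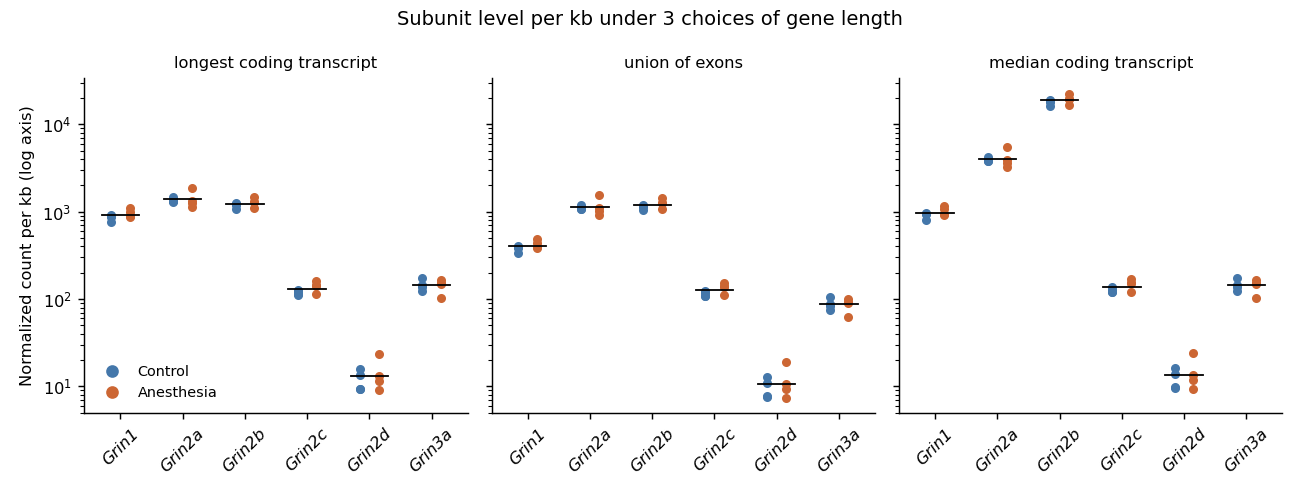
Normalized count per kb (log axis) of the 6 subunit genes in each mouse, Control in blue and Anesthesia in orange, with the mean of the 8 mice as a black line, for 3 choices of gene length. Grin2d is lowest in each panel, with a mean of 13.1 per kb for the longest coding transcript, and Grin2a and Grin2b change places between the first panel and the others.

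Around the receptor, a list of 47 partner genes was read from the same fit, of which 46 were tested and Dao has no row. Of these, 27 had a higher and 19 a lower mean log2 level in the Anesthesia group. Of the 46, 0 passed the adjusted threshold, and 2 had an unadjusted p under 0.05, or 4.35% against 8.02% of all genes. Their median log2 fold change was 0.043, beside -0.0036 for all genes tested. The count of 2 moved between 0 and 8 when single mice were left out, with 8, or 17.4% beside 9.29% of all genes in the same fit, without Anesthesia mouse 2, 1 without Anesthesia mouse 3 and 0 without either Anesthesia mouse 4 or Control mouse 3.

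The first of the 2 genes was Lrp8, a receptor for reelin, the secreted protein linked to the maturation of NMDA receptor subunits. It measured 1049, 1379, 1212 and 1278 in Anesthesia mice 1 to 4 and 950.8, 1131, 995.6 and 1055 in Control mice 1 to 4. Anesthesia mouse 1 alone overlapped the Control range, and the log2 fold change was 0.25 (SE 0.091, limma adjusted p = 0.620). The second was Src, a tyrosine kinase that phosphorylates GluN2 subunits and increases the channel current. It measured 1826, 2198, 2186 and 2145 in Anesthesia mice 1 to 4 and 1938, 1744, 1774 and 1857 in Control mice 1 to 4, with the same Anesthesia mouse overlapping. The log2 fold change of Src was 0.19 (SE 0.072, limma adjusted p = 0.620), and 0.082 after the GC and length correction. For both genes the Anesthesia mouse that overlapped was the one of its group with a high choroid plexus sum, and the part of that tissue was not tested.

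By role, 0 genes of any class passed the adjusted threshold. Of the 7 genes tested for supply and uptake of the co-agonists glycine and D-serine, 6 had a lower mean, and the smallest p was that of Psat1, an enzyme of serine synthesis, with a log2 difference of -0.14 (limma adjusted p = 0.727). Of the 5 scaffold genes of the MAGUK family and its partners, 4 had a higher mean, the smallest p being that of Dlg4, which encodes PSD-95, at 0.18 (limma adjusted p = 0.652). Of the 6 genes of transport along dendrites 5 had a higher mean. Apba1, an adaptor between the receptor and the kinesin motor, had the smallest p there, with 0.23 (limma adjusted p = 0.671).

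Kif17, the kinesin that carries GluN2B, was the only partner whose groups did not overlap, or 1 of 46 where 5.04% of all genes had this property. It is named after its values were seen. It measured 200.5, 211.3, 196.8 and 202.8 in Anesthesia mice 1 to 4 and 194.1, 183.1, 161.0 and 190.5 in Control mice 1 to 4, a log2 fold change of 0.16 (SE 0.098, limma adjusted p = 0.689).

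In the other classes, all 3 auxiliary or surface partners had a higher mean, with the smallest p for Ephb2, a receptor tyrosine kinase that binds GluN1, at 0.082 (limma adjusted p = 0.828). Of the 9 kinases and phosphatases 3 had a higher and 6 a lower mean log2 level. Of the 7 genes downstream of the receptor 5 had a higher mean log2 level, and Nos1, the neuronal nitric oxide synthase, had the smallest p with 0.24 (limma adjusted p = 0.677). Of the 6 genes tied to the subunit switch 4 were higher, and of the 3 ubiquitin ligases 2 were, with the smallest p for Mib2 at 0.12 (limma adjusted p = 0.652). The direction of the mean log2 levels was mixed in 7 of the 8 classes. After the GC and length correction the log2 fold change of Ephb2 was -0.095, and those of Apba1, Nos1, Kif17 and Mib2 were 0.11, 0.088, 0.058 and 0.0042.

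**Figure D5:**
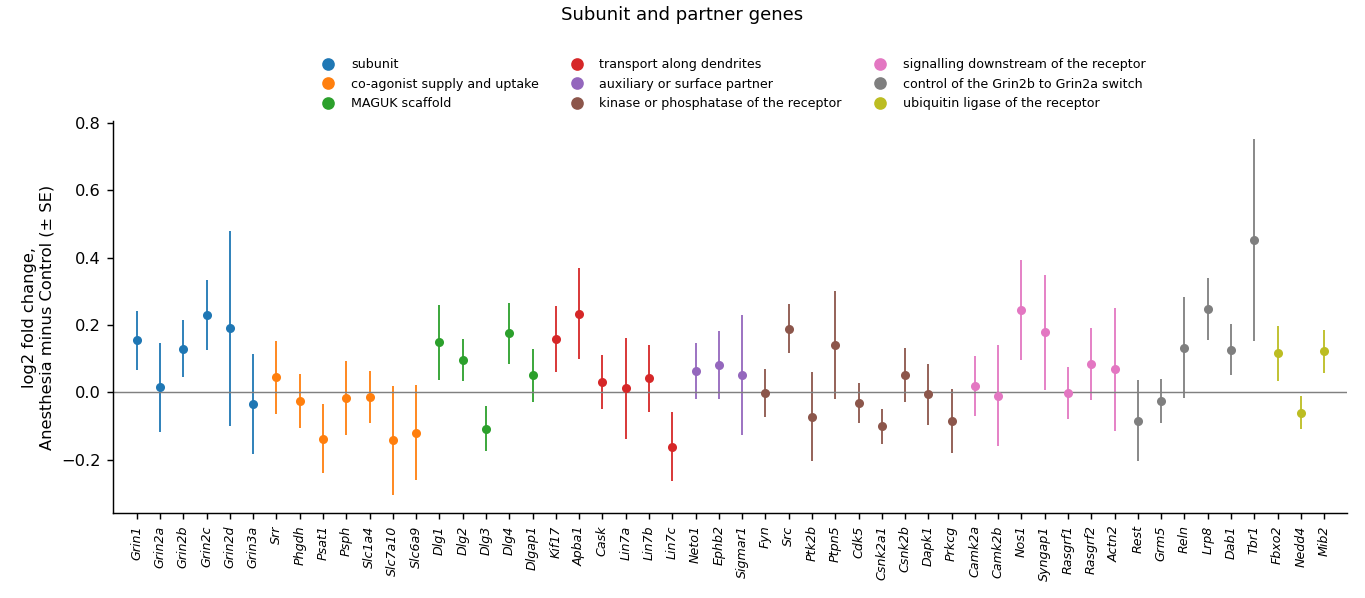
Log2 fold change, Anesthesia minus Control, of the 6 subunit genes and of the 46 tested partner genes coloured by role; points are limma estimates and bars are ± SE. Most points lie near 0, the 2 partner genes with an unadjusted p under 0.05 are Lrp8 at 0.25 and Src at 0.19, and no gene shown passes the adjusted threshold.

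To describe the pattern of each subunit over the mice, the 12249 genes that averaged 100 or more were ordered by the root mean square difference of their centred log2 values from those of the member over the 8 mice. The nearest to Grin2a were Adcy9 at 0.052, Arhgef25 at 0.054 and Ncdn at 0.059, where Grin2a itself varied by 0.20. The nearest to Grin2b were Sumo3 at 0.036, Pcdhb11 at 0.041 and Ago1 at 0.042, and to Grin1 they were Nrg3 at 0.048, Unc13b at 0.053 and Dmtn at 0.054. For Grin2c they were Mier2 at 0.049, C230071H17Rik at 0.051 and Gm9864 at 0.052. Grin3a was nearest to Cadm1 at 0.062, Lypd6 at 0.070 and Zwint at 0.072. Grin2d, whose counts were the lowest, was nearest to Rnf152 at 0.16, Rpp40 at 0.19 and Tmem196 at 0.20, where Grin2d itself varied by 0.43. No member was among the 3 nearest genes of another member, and Grin2d could not be, because it averaged under 100.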

How the data were processed

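Hippocampal RNA-sequencing values of 8 mice, 4 Anesthesia and 4 Control, were taken from 1 table. The authors quantified transcripts with Salmon 1.1.0 on GRCm38 with GC bias correction, summarised them per gene with tximport in R 3.5.3 and normalized them with DESeq2 1.30.1. The annotation release is not given in the sources used here. The deposited values are this normalized signal, called normalized count in the text. Only 46.1% to 68.3% of the low values, per mouse, came within 0.1 of whole reads, which left the read counts unknown, and a count model was therefore not applied.

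Gene IDs were matched to symbols, with 18 IDs left without one and 0 columns left over. Genes with a mean under 10, 1937 in all, were left out. The main test was limma 3.58.1 (R 4.3.3, mean-variance trend, no covariate) on the scale log2(value + 1), which understates the change of low genes, and p-values were adjusted over all 18865 genes. The fit was tested on simulated data. Ratios and correlations were tested by exact permutation (two-sided; Python 3.11.15, SciPy 1.17.1). Positions, lengths and sequences are from GENCODE M21.

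The members, partner genes and marker lists were chosen with earlier results of these data known. Named genes are the 6 members, partner genes with an unadjusted p under 0.05 or otherwise the smallest p of their role, and the 3 genes nearest to each member. Alternatives were other scalings, filters, pseudocounts, tests, covariates, a replicate block, a GC and length correction, gene lengths and leaving out mice.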

Additional observations from a re-analysis of the deposited data

Results flagged for a closer look

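Of 52 groups of 4 mice examined with Dixon's test at the 95% level, 2 held a mouse apart from the other 3, where chance gives about 1 in 20, or 2.6. The log2 ratio of Grin2b to Grin1 was 2.503 in Anesthesia mouse 3 and 3.02 to 3.08 in the other Anesthesia mice, and the gap took up 0.893 of the range. The mean log2 level of the listed cerebellar granule neuron markers, relative to the Control mean, was -0.22 in Control mouse 1 and 0.047 to 0.094 in the other Control mice, with a gap of 0.853 of the range. Only 2 of the 3 genes of that list were in the table.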

How the results depend on the processing

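No subunit gene and no partner gene passed the adjusted threshold in any alternative run for it. The adjusted p of Grin2c ranged from 0.2998 to 0.980 and its log2 fold change from 0.065 to 0.33. Correction for GC content and transcript length turned Grin2a to -0.082 and Grin2d to -0.015, with or without the replicate block, and Grin2d to Grin1 to -0.048. The choroid plexus covariate turned Grin2a to -0.040. Without both Anesthesia mice 2 and 3, chosen after seeing the data, the log2 difference was -0.073 for Grin2a, -0.11 for Grin2d, 0.065 for Grin3a, 0.11 for Grin2b to Grin1, -0.13 for Grin2d to Grin1 and 0.040 for Grin3a to Grin1. The cause was not tested for any of these. Leaving out 1 mouse gave -0.14 to 0.11 for Grin2a, -0.081 to 0.37 for Grin2d, -0.11 to 0.11 for Grin3a, -0.27 to 0.022 for Grin2a to Grin1, -0.10 to 0.11 for Grin2b to Grin1 and -0.17 to 0.24 for Grin2d to Grin1.

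The gene length set the Control shares of the level per kb. Over the union of exons they were 13.4% for Grin1, 39.0% for Grin2a, 40.1% for Grin2b, 4.05% for Grin2c and 3.10% for Grin3a. Over the median coding transcript they were 3.99%, 17.2%, 77.6%, 0.549% and 0.629% for these genes and 0.0543% for Grin2d. Genes with an unadjusted p under 0.05 numbered 871 with the GC and length correction and the replicate block, 816 with the choroid plexus covariate, 961 without both Anesthesia mice 2 and 3, and 1061 to 2022 without 1 mouse. Genes under the adjusted threshold numbered 0 to 2 without 1 mouse, with 2 only without Control mouse 1, and partner genes with an unadjusted p under 0.05 numbered 0 to 8.

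Mice with the same replicate number did not deviate together over the genes tested, with correlations of -0.242, -0.109, -0.182 and 0.019. These correlations cannot settle whether the numbers pair the mice, because uneven tissue content, such as choroid plexus, enters them too. With the replicate block 0 genes passed the adjusted threshold and 1084 had an unadjusted p under 0.05, the p of Grin2c was 0.0913, and the Grin2a to Grin2b difference had a sign-flip permutation p of 0.375. Of all values recomputed, 264 kept direction and side of the threshold or stayed within the spread, 24 turned and 19 moved. With 4 mice per group, the 95% intervals still held levels up to 1.22-fold higher for Grin3a and 1.78-fold higher for Grin2d, whose low counts add to its error.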
